A study of Mus musculus with 28 samples.

Results

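The 9 genes described here encode transcription factors that pattern the developing hypothalamus: Nkx2-1, Rax, Otp, Sim1, Nr5a1, Fezf1, Six6, Hmx2 and Hmx3. They were chosen by name and matched by symbol to the Ensembl identifiers of the count tables, where all 9 were found among 29878 listed genes. RNA was sequenced from the hypothalamus, ventral striatum, dorsal striatum and motor cortex of male mice 2 to 3 months old that were wild type (WT), heterozygous (het) or knockout (KO) for Hdc, the gene of the enzyme that makes histamine. The KO line had been backcrossed to C57Bl/6, and the strain of the WT animals is not detailed further here. Ddx3y, on the Y chromosome, was read in each of the 28 libraries (11.4 to 24.6 CPM) and Xist stood at 2.78 CPM or less, the pattern of males. The 28 libraries comprised 3 WT, 3 het and 2 KO of hypothalamus, 3 WT, 3 het and 2 KO of ventral striatum, 2 WT, 3 het and 2 KO of dorsal striatum, and 1 WT, 2 het and 2 KO of motor cortex. Counts on genes ranged from 3536802 to 5150280 a library, with a median of 4392301. Libraries are named by genotype and replicate number, as in het 5. Levels are CPM, counts relative to the scaled library size in the usual unit, and at this depth 1 count was worth about 0.2 CPM.

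These factors act in the embryo, where they divide the ventral diencephalon into fields and then commit neurons to nuclei. Several stay on in the adult and mark the nuclei they helped to form: Otp and Sim1 the paraventricular and supraoptic nuclei, Nr5a1 and Fezf1 the ventromedial nucleus, Six6 the suprachiasmatic and arcuate region, and Rax the tanycytes, the glia-like cells that line the floor of the ventricle. Nkx2-1 has a wider field, since it also specifies interneurons and cholinergic neurons that leave the medial ganglionic eminence for the striatum.

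Hdc, the targeted gene, was read first. In hypothalamus it stood at 15.3, 19.1 and 16.8 CPM in the libraries labelled WT, 14.6, 21.8 and 15.2 in those labelled het, and 11.7 and 14.2 in those labelled KO. Outside the hypothalamus it stood at 0 to 1.62 CPM in the 6 libraries labelled WT, 4.17 to 6.73 in the 8 labelled het and 7.84 to 12.9 in the 6 labelled KO. In hypothalamus the KO libraries were lowest, with a log2 fold change from WT of -0.40 (SE 0.21, edgeR adjusted p = 0.840). Outside the hypothalamus the order ran the opposite way, with more Hdc counts under the KO label than under WT. Which part of the gene the deletion removed, and whether the counted exons lie outside it, was not given in the sources used here. Outside the hypothalamus the 3 labels thus fell into bands that did not overlap, in an order that differs from a loss of counts with the deletion, and genotype comparisons are written as comparisons of libraries labelled KO, het and WT.

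The dissections were checked by markers. Hcrt and Pmch, the peptides of lateral hypothalamic neurons, ran from 44.0 to 76.9 CPM and from 72.5 to 115 CPM in the 8 hypothalamus libraries. Elsewhere Hcrt reached at most 0.479 CPM and Pmch at most 1.35 CPM. The 17 hypothalamic neuropeptide and hormone genes summed to 247 to 389 CPM in hypothalamus, and 14 of the 16 tested were higher there than in the mean of the other regions, with 1 lower. The 8 markers of striatal spiny neurons summed to 127 to 161 CPM in hypothalamus, 1285 to 2893 in ventral striatum and 4574 to 6560 in dorsal striatum, led by Penk, and to 88.1 to 106 in motor cortex, led by Ppp1r1b, and 0 of them were higher and 7 lower in hypothalamus than in the mean of the other regions. Here and below the leading gene of a list is the gene with the highest median in the region. Of the pituitary genes Gh and Pou1f1 were at 0 in the 8 hypothalamus libraries. Cga gave 36 counts in hypothalamus and Tshb 53, against at most 3 and 18 in another region. Of the 10 pituitary genes found 8 had a count in hypothalamus and their sum there ran from 7.31 to 12.2 CPM. In hypothalamus 3 of 3 tested were higher than in the mean of the other regions. The part of pituitary tissue in these values was not tested.

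Several libraries stood apart in markers of neighbouring tissue. Hypothalamus KO 8 had 422 CPM summed over 8 markers of cortical excitatory neurons against 92.9 to 141 in the other 7 hypothalamus libraries, with Slc17a7 at 198 CPM and Emx1, at 0 in the other 7, read. Dorsal striatum KO 7 had 359 CPM of the same 8 genes against 21.3 to 125 in the other 6, and dorsal striatum KO 8 had 2907 CPM over 12 choroid plexus genes, of which Ttr made up 2706, against 3.30 to 70.5. Ventral striatum KO 8 had the highest sum of 7 thalamus markers in its region, 348 CPM against 121 to 223, and the lowest sum of spiny neuron markers, 1285 against 1618 to 2893. Dorsal striatum het 4 had 28.5 CPM over 6 ependymal genes against 2.72 to 6.82, led by Hydin. In hypothalamus the choroid plexus sum was 39.2 to 62.0 CPM, led by Prlr at 26.9 to 44.3 CPM, while Ttr stood at 0 to 3.44 CPM. The ependymal sum there was 16.0 to 32.8 CPM, led by Hydin. None of the genes of these lists was at 0 throughout the hypothalamus libraries. Against the mean of the other regions 4 of the 7 choroid plexus genes tested were higher in hypothalamus and 1 lower, 6 of 6 ependymal genes were higher, and 1 of 8 cortical genes was higher and 4 lower. Some comparisons are also given without hypothalamus KO 8, ventral striatum KO 8, dorsal striatum KO 7 or dorsal striatum KO 8.

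A filter of more than 1 CPM before scaling in at least 2 libraries kept 14979 genes and 7 of the 9 members. Hmx3, at most 0.816 CPM on that scale, and Rax, at most 0.630, were not tested. Hmx2 passed through 2 hypothalamus libraries, and Sim1, Six6 and Nr5a1 had at most 1 library over it outside the hypothalamus, so that a difference between regions was close to given for these 4 by the filter itself. Against the mean of the other regions 7 of the 7 tested were higher in hypothalamus by edgeR's likelihood ratio test, a comparison in which 54.5% of all genes were called, 30.6% higher and 23.8% lower. Against ventral striatum it was 7 of 7, with 43.6% of all genes called, 23.9% higher and 19.7% lower. Against dorsal striatum it was 7 of 7, with 56.1% called, 30.7% higher and 25.5% lower. Against motor cortex it was 6 of 7, without Hmx2, with 48.2% called, 25.4% higher and 22.9% lower. Between the striatal regions 2 of 7, Nkx2-1 and Fezf1, were higher in ventral striatum, with 29.0% called, 14.4% higher and 14.6% lower there. With shares of this size called among all genes, the counts describe the members and single out nothing about them. With hypothalamus KO 8, ventral striatum KO 8, dorsal striatum KO 7 and dorsal striatum KO 8 left out together, a choice made after their values were seen, each of these 5 counts was the same. Fewer cells of a type and less RNA per cell cannot be told apart in bulk tissue.

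**Figure D1:**
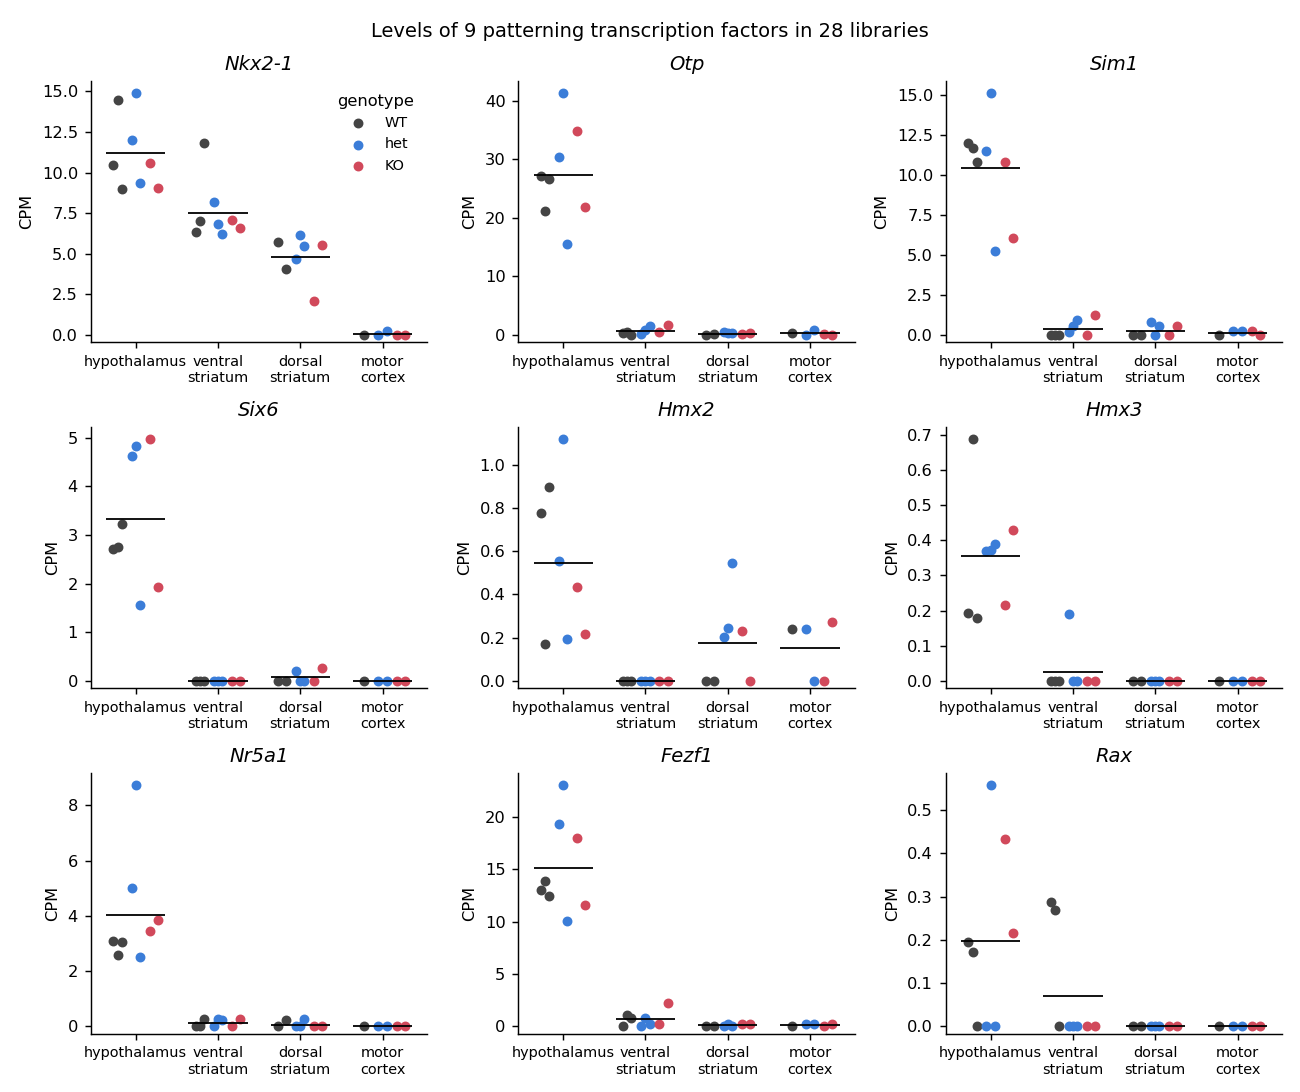
CPM of each of the 9 genes (vertical axis, a separate linear scale for each gene) in the 28 libraries by region, coloured by genotype label, with a line at each region's mean. Nkx2-1 is read in hypothalamus and both striatal regions and is at 0.257 CPM or less in motor cortex, while Otp, Sim1, Nr5a1, Fezf1 and Six6 are high in the 8 hypothalamus libraries and near 0 elsewhere.

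Levels of the members were compared with one another per kilobase of merged exon. The leading or most abundant gene of a list was taken by CPM, without regard to exon length. Otp was the most abundant member in hypothalamus, at 9.51 ± 2.84 CPM per kb (SD, n = 8), ahead of Fezf1 at 6.31 ± 1.85 and Nkx2-1 at 3.95 ± 0.831. Sim1 at 1.21 ± 0.375, Nr5a1 at 0.953 ± 0.486 and Six6 at 0.831 ± 0.334 formed a middle tier. Hmx3 at 0.244 ± 0.114, Hmx2 at 0.169 ± 0.111 and Rax at 0.0336 ± 0.0356 CPM per kb were at the limit of this depth. Neighbours in this order overlapped in their ranges over the 8 libraries in 7 of the 8 steps, and the step from Nkx2-1 (lowest 3.15) to Sim1 (highest 1.75) was the one without overlap.

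The promoters of the 3 members highest per kilobase are shown, a choice made after values were seen. They were taken from a table of RefSeq promoters (build GRCm38.p6) that covers 7 of the 9 members, and no promoter of Nr5a1 or Rax was used here. Each stretch holds the bases before the earliest annotated start, 5′ to 3′ on the gene's strand: chr6:23248363-23248514 on the minus strand for Fezf1, chr12:56536909-56537158 on the minus strand for Nkx2-1, and chr13:94875386-94875601 on the plus strand for Otp. The annotation has no gene over the Fezf1 and Otp stretches and the antisense gene Gm26973 over that of Nkx2-1. Capitals mark the letters CCAAT and GGGCGG on either strand, so that ATTGG and CCGCCC are marked too.
Fezf1: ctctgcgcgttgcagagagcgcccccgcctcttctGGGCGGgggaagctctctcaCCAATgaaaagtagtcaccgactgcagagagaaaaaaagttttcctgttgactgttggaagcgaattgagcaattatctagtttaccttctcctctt
Nkx2-1: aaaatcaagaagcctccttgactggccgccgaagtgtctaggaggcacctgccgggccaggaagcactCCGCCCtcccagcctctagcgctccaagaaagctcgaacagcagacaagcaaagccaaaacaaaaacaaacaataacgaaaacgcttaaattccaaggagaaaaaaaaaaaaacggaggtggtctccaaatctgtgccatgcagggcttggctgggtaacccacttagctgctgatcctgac
Otp: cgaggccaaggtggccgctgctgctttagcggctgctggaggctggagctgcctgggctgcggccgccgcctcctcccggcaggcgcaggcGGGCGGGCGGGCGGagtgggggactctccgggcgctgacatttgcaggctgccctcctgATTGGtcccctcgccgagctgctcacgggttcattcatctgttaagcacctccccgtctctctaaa

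The Fezf1 stretch held 1 CCAAT and 1 GGGCGG, that of Otp 1 CCAAT and 3 GGGCGG that overlap one another, and that of Nkx2-1 1 GGGCGG and no CCAAT. Of 32851 mouse promoters of 300 bases 37.4% hold CCAAT and 35.7% GGGCGG, so either is common. Letters that bind factors of these families or the general machinery were searched on both strands as well: CAAGTG (NKX2 and HMX homeodomains, in 13.6% of promoters), TAATTA (paired-like homeodomains, 5.29%), CAAGGTCA (NR5A1, 1.56%), TACGTG (SIM1 with ARNT2, 3.23%) and TATAAA (the TATA box, 13.6%). None of these 5 was in the printed stretches, which says only that these letters are not in this window. CCAAT and GGGCGG were added to the search after the sequences had been seen, and a match is a description of the letters, not of a bound site. Base composition of the full windows was 50.0% G and C for Fezf1, 53.7% for Nkx2-1 and 58.7% for Otp, against a median of 52.7%.

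Nkx2-1 (ENSMUSG00000001496, chr12:56531958-56536908 of GRCm38, minus strand) was the member with the widest field in the 4 regions dissected, over 1 CPM before scaling in 23 of the 28 libraries. In the 8 hypothalamus libraries its lowest value was 8.96 CPM, its median 10.5 and its highest 14.9. In the 8 ventral striatum libraries these were 6.23, 6.91 and 11.8 CPM. The 7 dorsal striatum libraries had 2.07, 5.45 and 6.13 CPM. In motor cortex 1 count was seen over 5 libraries, 0.257 CPM in het 6. The ventral striatal range reached into the hypothalamic one through WT 3 at 11.8 CPM alone, since its other 7 libraries ended at 8.16, and the dorsal striatal range lay below both. Pooled over libraries the hypothalamus was 1.50-fold above ventral striatum (95% counting interval 1.28 to 1.76, which like every interval here covers counting error only; log2 fold change 0.57, SE 0.17, edgeR adjusted p = 0.00219). Over dorsal striatum the ratio was 2.39 (1.97 to 2.92; log2 fold change 1.26, SE 0.19, edgeR adjusted p = 1.0e-10), with fitted values of 1.07 without dorsal striatum KO 7 and 1.54 without dorsal striatum KO 8. Against the single count of motor cortex it was 230, with an interval of 41.1 to 9114. Ventral striatum was in turn 1.59-fold above dorsal striatum (1.29 to 1.98; log2 fold change 0.69, SE 0.20, edgeR adjusted p = 0.00299). That call was lost without dorsal striatum KO 7, the library at 2.07 CPM (log2 fold change 0.51, edgeR adjusted p = 0.0586), so that most of the fitted difference stayed. Over the libraries left out in turn the value ran from 0.51 to 0.97, the latter without dorsal striatum KO 8 (edgeR adjusted p 1.9e-04 to 0.0586).

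Genes of the neurons that Nkx2-1 specifies outside the hypothalamus were read beside it. Of 9 such genes of the basal forebrain and medial ganglionic eminence, 5 were higher in ventral than in dorsal striatum and 0 lower by edgeR. Their sum was 256 to 333 CPM in ventral striatum, 199 to 249 in dorsal striatum and 264 to 283 in motor cortex, with Npy most abundant. In hypothalamus it was 139 to 166 CPM, with Nxph1 most abundant and none of the 9 at 0 in every library. Lhx8, a homeobox gene of striatal cholinergic neurons, had a median of 26.3 CPM in ventral striatum, 12.2 in dorsal striatum and 0.475 in hypothalamus, and 1 count in motor cortex. Chat, of the same cholinergic neurons, ran the other way between the striatal regions, with medians of 13.6 CPM in ventral and 17.8 in dorsal striatum. Lhx6, of cortical and striatal interneurons, had medians of 34.3, 15.7, 3.34 and 13.5 CPM in ventral striatum, dorsal striatum, hypothalamus and motor cortex. Motor cortex thus held Lhx6 beside a single count of Nkx2-1. Against the mean of the other regions 2 of the 9 were higher in hypothalamus and 5 lower. Ventral striatum WT 3, highest for Nkx2-1, had Lhx6 at 46.5 CPM and Lhx8 at 40.0, and ventral striatum KO 8, with Nkx2-1 at 6.58 CPM, had 45.0 and 42.5. The part of these cells in the Nkx2-1 values was not tested.

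**Figure D2:**
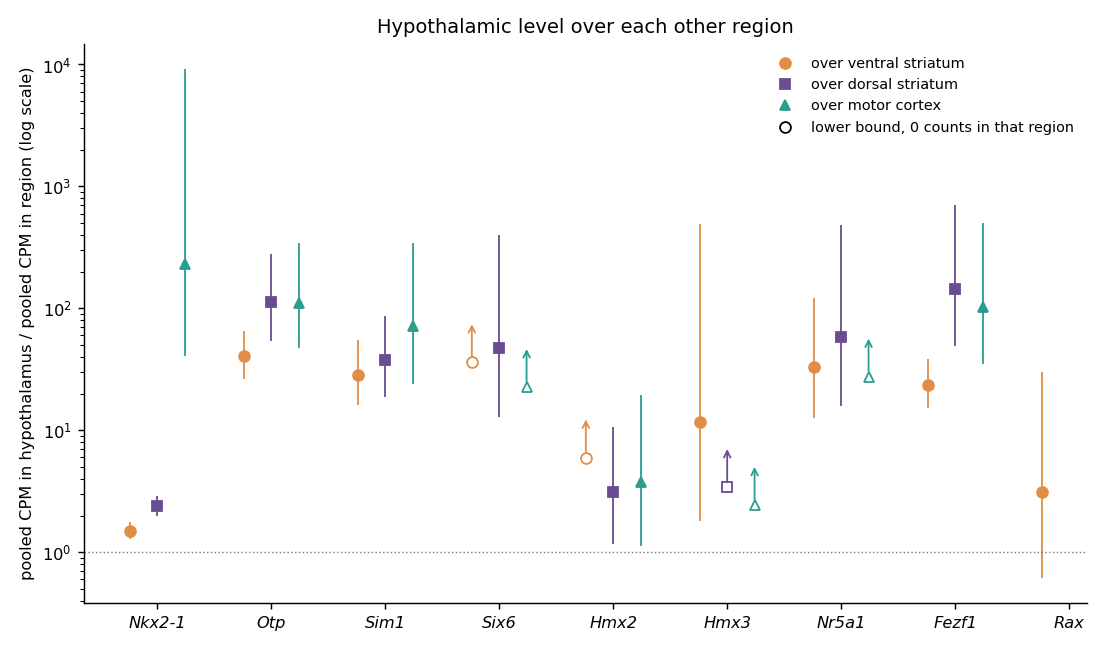
Ratio of pooled CPM in hypothalamus to pooled CPM in each other region (log axis) for the 9 genes, with 95% counting intervals as vertical lines; open symbols with arrows are lower bounds where the other region had 0 counts, set at 3 counts over the region, and Rax is drawn over ventral striatum alone. Nkx2-1 stands at 1.50 over ventral striatum and 2.39 over dorsal striatum, against 40.4 and 112 for Otp.

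Otp and Sim1, which are both required for the neurosecretory neurons of the paraventricular and supraoptic nuclei, were almost confined to hypothalamus in these regions. Otp (ENSMUSG00000021685, chr13:94875602-94885130, plus strand) had a lowest value of 15.6 CPM, a median of 26.9 and a highest of 41.3 there. In ventral striatum these were 0, 0.506 and 1.77 CPM, and in dorsal striatum 0, 0.245 and 0.408. Motor cortex held 5 counts, 3 of them in het 6 (0.772 CPM). No library outside the hypothalamus came near its lowest value. The pooled ratio was 40.4 over ventral striatum (26.6 to 64.8; log2 fold change 5.41, SE 0.40, edgeR adjusted p = 6.7e-74). Over dorsal striatum it was 112 (54.0 to 278) and over motor cortex 111 (47.6 to 344).

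Sim1 (ENSMUSG00000019913, chr10:50894754-50989152, plus strand) had 5.26, 11.2 and 15.1 CPM as lowest, median and highest in hypothalamus. In ventral striatum 12 counts and in dorsal striatum 8 counts were spread over 4 and 3 libraries, up to 1.27 and 0.815 CPM, and motor cortex had 3. The 3 libraries of ventral striatum and the 2 of dorsal striatum labelled WT had 0. The ratio was 28.5 over ventral striatum (16.1 to 55.5), 37.5 over dorsal striatum (18.9 to 87.3) and 71.2 over motor cortex (24.2 to 347). Since a genotype group stood at 0, the fitted log2 fold changes of Sim1 (5.54, 6.01 and 6.58, edgeR adjusted p = 1.4e-39, 3.6e-38 and 4.1e-29) depend on the prior count and are no bounds, and the same holds for the Fezf1 value between the striatal regions given below. They reached 7.05 without ventral striatum KO 8, 7.10 without dorsal striatum KO 8 and 7.38 without motor cortex KO 7, and the last was 5.54 without motor cortex WT 2. Of 6 genes of paraventricular and supraoptic neurons, Otp and Sim1 among them, 5 were higher in hypothalamus than in the mean of the other regions and 0 lower. They summed to 46.2 to 124 CPM in hypothalamus with none at 0, and Otp was the most abundant by median. Elsewhere the sum ended at 13.4 CPM.

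Nr5a1 and Fezf1 are both needed for the ventromedial nucleus, Nr5a1 as the nuclear receptor that defines its dorsomedial neurons and Fezf1 as a zinc finger factor upstream in their development. Nr5a1 (ENSMUSG00000026751, chr2:38692656-38714542, minus strand) had 2.53, 3.28 and 8.75 CPM as lowest, median and highest in hypothalamus. Ventral striatum held 4 counts, dorsal striatum 2 and motor cortex 0, at most 0.272 CPM in a library. The ratio was 32.9 over ventral striatum (12.6 to 122; log2 fold change 4.72, SE 0.80, edgeR adjusted p = 4.9e-21), and the fitted value was 5.53 without ventral striatum KO 8. That fit left KO 7, at 0 counts, as the only KO library of the region, so 5.53 depends on the prior count. The ratio was 57.8 over the 2 counts of dorsal striatum (15.8 to 481) and at least 27.5 over motor cortex. The highest value, het 5, stood well clear of the next, het 4 at 5.00 CPM.

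Fezf1 (ENSMUSG00000029697, chr6:23245044-23248362, minus strand) had 10.1, 13.5 and 23.1 CPM in hypothalamus. In ventral striatum it had 0, 0.505 and 2.28 CPM over 21 counts, and in dorsal striatum and motor cortex 3 counts each. The ratio was 23.6 over ventral striatum (15.3 to 38.3; log2 fold change 4.53, SE 0.38, edgeR adjusted p = 1.1e-51), and the fitted value was 5.28 without ventral striatum KO 8. Over dorsal striatum it was 145 (49.3 to 704) and over motor cortex 103 (35.2 to 502). Ventral striatum lay above dorsal striatum by 6.15-fold (1.84 to 32.2) with overlapping ranges, a fitted log2 fold change of 2.79 (edgeR adjusted p = 0.00220; 2.04 without ventral striatum KO 8 to 3.43 without dorsal striatum het 5). That call rested on single libraries, since the adjusted p was 0.112 without ventral striatum KO 8, at 2.28 CPM, and 0.0616 without ventral striatum het 5, at 0.786 CPM (edgeR, 5.3e-04 to 0.112 over the libraries left out in turn). Of 5 ventromedial genes, Nr5a1 and Fezf1 among them, 4 were tested and 4 were higher in hypothalamus than in the mean of the other regions, 2 of the 4 being these members. Their sum was 37.4 to 72.6 CPM there, with Adcyap1 most abundant and none at 0 throughout, and at most 23.2 CPM elsewhere. Nr0b1 was at 0 in hypothalamus WT 2 and KO 7.

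Six6, Hmx2 and Hmx3 are homeobox genes of the ventral hypothalamus, Six6 of its suprachiasmatic and arcuate territory and of the pituitary, and the adjacent pair Hmx2 and Hmx3 of the arcuate neurons that make growth hormone-releasing hormone. Six6 (ENSMUSG00000021099, chr12:72939892-72944899, plus strand) had 1.56, 2.99 and 4.98 CPM in hypothalamus. Outside it 2 counts were seen in 20 libraries, both in dorsal striatum. The hypothalamus was at least 36.1-fold above ventral striatum, taking 3 counts over that region as the floor and the hypothalamic counts without their own error, as for every such bound here, and at least 22.6-fold above motor cortex. Over the 2 counts of dorsal striatum the ratio was 47.6 (12.9 to 397).

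Hmx2 (ENSMUSG00000050100, chr7:131548773-131558014, plus strand) gave 23 counts in hypothalamus, from 0.172 to 1.12 CPM with a median of 0.495, 0 in ventral striatum, 5 in dorsal striatum and 3 in motor cortex. Its hypothalamic range overlapped those of dorsal striatum and motor cortex. The hypothalamus was at least 5.98-fold above ventral striatum, 3.15-fold above dorsal striatum (1.17 to 10.6; edgeR adjusted p = 0.0124) and 3.74-fold above motor cortex (1.13 to 19.5; log2 fold change 1.52, SE 0.93, edgeR adjusted p = 0.0845). The call against dorsal striatum was lost without hypothalamus KO 7 (edgeR adjusted p = 0.0612; 0.00667 to 0.0612 over 13 of the 15 libraries left out in turn) and with DESeq2 (adjusted p = 0.131). Against motor cortex a call was gained without KO 8 of that region (edgeR adjusted p = 0.0433), without het 5 of that region (0.0479) and on library size alone (0.0392), with 0.0433 to 0.227 over 11 of the 13 libraries left out in turn. In the remaining 2 fits of each, without 1 of the 2 hypothalamus libraries that carry it past the filter, Hmx2 was not tested. Hmx3 (ENSMUSG00000040148, chr7:131542867-131544925, plus strand), whose gene ends 3.85 kb from Hmx2, gave 15 counts in hypothalamus, at 0.179 to 0.689 CPM, with at least 1 in each of the 8 libraries, and 1 count outside it, 0.190 CPM in ventral striatum het 4, inside the hypothalamic range. The ratio was 11.7 over that count (1.80 to 492), at least 3.42 over dorsal striatum and at least 2.44 over motor cortex. Of 5 arcuate genes found, Six6 among them, 5 were higher in hypothalamus than in the mean of the other regions. They summed to 21.6 to 41.9 CPM there, with none at 0 throughout, and Tac2 was the most abundant. In ventral striatum the sum was 5.19 to 59.5 CPM, nearly all Tac2, and Six6 was at 0.

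Rax, which opens the hypothalamic and retinal fields and persists in tanycytes, was at the edge of detection. It gave 8 counts in hypothalamus (3 in het 5, 2 in KO 7, 1 in each of WT 1, WT 2 and KO 8, 0 in WT 3, het 4 and het 6) and 2 in ventral striatum. The ratio was 3.12 with an interval of 0.622 to 30.1, so that no difference between these regions was detectable at this depth. Dorsal striatum and motor cortex had 0, and on 8 counts, with hypothalamus libraries at 0 as well, no lower bound is given for those regions. Of 12 tanycyte genes 11 were tested, and 5 were higher and 4 lower in hypothalamus than in the mean of the other regions. Their sum was 160 to 220 CPM in hypothalamus, led by Col25a1, and 190 to 295 CPM in the other regions, so this list did not set the hypothalamus apart. A part of the Rax exons, 1604 bases or 27.4%, is shared with the antisense gene Raxos1, and without strand information those reads cannot be told apart.

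The few counts outside the hypothalamus were uneven. Leaving aside Nkx2-1, the other 8 members together gave 22 counts (5.57 CPM) in ventral striatum KO 8 against 2 to 12 in the other 7 ventral striatum libraries. Fezf1 gave 9 of the 22, Otp 7 and Sim1 5. The next highest, het 6 of the same region, had 12 counts, 6 of Otp and 4 of Sim1. The 8 members gave 0 to 8 counts a library in dorsal striatum and 2 to 5 in motor cortex. The 7 thalamus markers summed to 348 CPM in ventral striatum KO 8, with all 7 read there. Tcf7l2 at 127 CPM was the most abundant, and Slc17a6 stood at 64.0 CPM against 4.61 to 27.2 in the other 7. Prkcd was not highest there, at 7.84 CPM against 12.9 in WT 2 and 8.35 in het 4. Hcrt and Pmch, at 1 count or 0.253 CPM each, were not highest in ventral striatum KO 8. Neither were Avp, at 0.253 CPM against 1.90 in het 4, and Trh, at 3.80 against 4.55 in het 4. Highest of the region were Oxt at 0.506 CPM on 2 counts (0.479 in het 6, 0 in the other 6) and Tac2 at 58.7 CPM. The paraventricular and supraoptic sum, led by Crh at 5.82, was also highest there, at 13.4 CPM. Without Otp and Sim1 that sum was 10.4 CPM, against 9.10 in het 4. The part of neighbouring tissue in these counts was not tested. Without ventral striatum KO 8 the log2 fold changes of hypothalamus over ventral striatum were 5.28 for Fezf1, 5.81 for Otp, 5.53 for Nr5a1 and 7.05 for Sim1, above the values with it. KO 7 was then the only KO library of the region, at 0 counts of Nr5a1 and of Sim1. The values of Nr5a1 and Sim1 thus depend on the prior count and are no bounds. Between ventral and dorsal striatum Otp gave 22 against 7 counts, a ratio of 2.76 (1.14 to 7.65; log2 fold change 1.39, SE 0.75, edgeR adjusted p = 0.0930), and passed when ventral striatum KO 7 was left out (edgeR adjusted p = 0.0473; 0.0473 to 0.348 over the libraries left out in turn). For Sim1, Six6 and Hmx2 that comparison carried no information, since a genotype group stood at 0 in both regions (edgeR adjusted p = 1.000). Sim1 gave 12 against 8 counts there, a ratio of 1.32 (0.495 to 3.71).

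**Figure D3:**
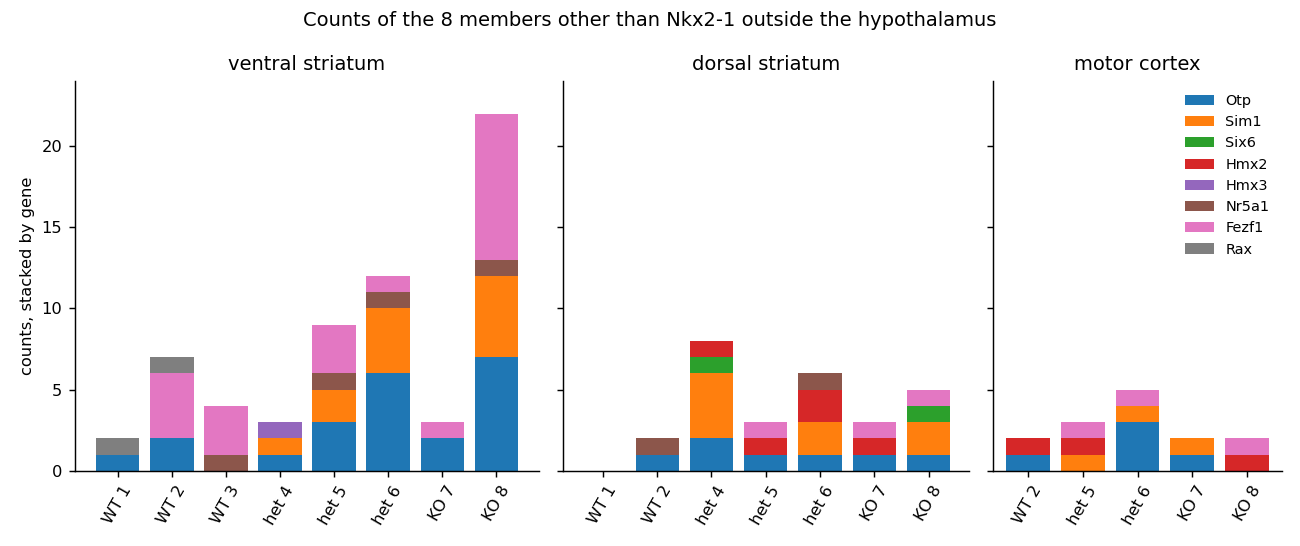
Counts of the 8 members other than Nkx2-1 (vertical axis, stacked by gene) in each library outside the hypothalamus, by region. Ventral striatum KO 8 has 22 counts, made of Fezf1, Otp, Sim1 and 1 of Nr5a1, against 12 or fewer in the other 19 libraries.

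The members differed between hypothalamus libraries of 1 genotype label, above all between those labelled het. Relative to each gene's mean over the 8 libraries, the 6 members above 2 CPM had a median ratio of 1.48 in het 5, where 5 of the 6 were highest, and 0.598 in het 6, where 5 of the 6 were lowest. The median ratio was 1.17 in het 4, 1.11 in KO 7, 0.782 in KO 8, and 0.893, 0.873 and 0.897 in WT 1, WT 2 and WT 3. The 4 paraventricular and supraoptic genes other than Otp and Sim1 summed to 67.6 CPM in het 5 and were likewise lowest in het 6, at 25.3, but their highest sum was 76.5 in WT 3. The sum of the 7 thalamus markers was highest where the members were lowest, at 1589 CPM in het 6 against 1051 in het 5, with 1443, 1185, 1159, 1045, 996 and 853 in WT 2, WT 3, het 4, KO 7, WT 1 and KO 8. The remaining libraries did not follow an opposite order: WT 1 had low member levels and a thalamus sum below that of het 5, and KO 8 had low member levels and the lowest thalamus sum beside its 422 CPM of cortical markers. All 7 thalamus genes were read in hypothalamus and 7 of 7 were higher there than in the mean of the other regions. Tcf7l2 was the most abundant by median at 206 to 420 CPM, and none was at 0 throughout. Prkcd, which marks thalamic relay neurons, was 178 CPM in het 6 and 31.3 in het 5. Some of these genes, Slc17a6 among them, are used by hypothalamic neurons as well. The part of dissection in the members' levels was not tested.

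**Figure D4:**
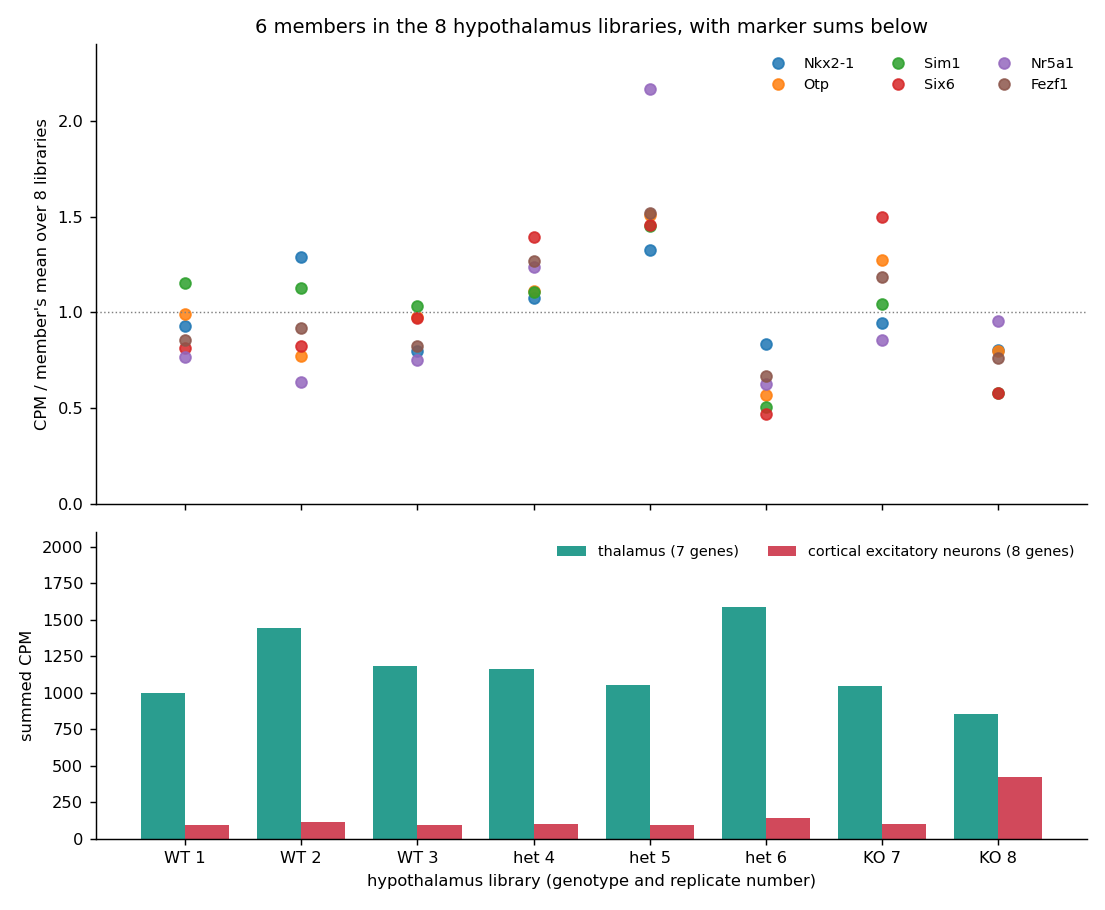
Upper panel: CPM of 6 members divided by the gene's mean over the 8 hypothalamus libraries (vertical axis, no unit), by library. Lower panel: summed CPM of 7 thalamus and 8 cortical marker genes in the same libraries. Het 5 has the highest member ratios (median 1.48), het 6 the lowest (median 0.598) with the highest thalamus sum, and KO 8 the highest cortical sum.

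Pairs of members were correlated over the 8 hypothalamus libraries in log2 CPM, 21 pairs in all, with exact permutation p counted on both sides. Pearson's r was above 0 in 21 of 21, with a median of 0.70 and a range of 0.18 to 0.93. After Benjamini-Hochberg adjustment over the 21 pairs 4 stayed under 0.05 by Pearson (10 unadjusted) and 0 by Spearman (8 unadjusted). Six6 and Fezf1 had r = 0.93 (exact permutation p = 0.00109, adjusted 0.0133) and rho = 0.86 (exact permutation p = 0.0107, adjusted 0.0807), with r = 0.91 when the 2 farthest libraries, het 6 and KO 7, were left out. Otp and Six6 had r = 0.92 (exact permutation p = 0.00126, adjusted 0.0133) and rho = 0.86 (exact permutation p = 0.0107, adjusted 0.0807), with r = 0.88 without het 5 and het 6. Otp and Fezf1 had r = 0.90 (exact permutation p = 0.00248, adjusted 0.0174) and rho = 0.83 (exact permutation p = 0.0154, adjusted 0.0807), with r = 0.74 without het 5 and het 6. Nr5a1 and Fezf1, the ventromedial pair, had r = 0.82 (exact permutation p = 0.00910, adjusted 0.0478) and rho = 0.69 (exact permutation p = 0.0694, adjusted 0.162), but r = 0.31 without het 4 and het 5, so that this relation rests on those libraries. For Nkx2-1 the r ran from 0.18 with Hmx2 to 0.72 with Fezf1, and none of its pairs passed after adjustment. With deviations from the genotype means in place of levels 9 pairs passed. Those deviations sum to 0 within each label, so permuting them over the 8 libraries is not exact and the 9 says little. With 2 libraries left out 0 pairs passed, but 6 libraries allow few permutations, so that this count says little and the r given above say more. The libraries share dissection and depth, and no source of the common movement was tested. The 17 neuropeptide and hormone genes were likewise highest in het 5 (389 CPM) and lowest in het 6 (247), but in between they did not follow the members, with 356 in WT 3, 333 in KO 8, 325 in WT 1 and in het 4, 306 in KO 7 and 249 in WT 2. The share of passing pairs among other genes was not computed, so the counts of pairs single out nothing about the members.

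Between genotype labels in the hypothalamus 0 of the 7 tested members passed in any of the 3 comparisons by edgeR's likelihood ratio test. Among all genes 0.167% passed between KO and WT (0.147% higher and 0.0200% lower in KO). Between het and WT 0.0935% passed (0.0401% higher and 0.0534% lower in het), and between KO and het 0.234% (0.220% higher and 0.0134% lower in KO). At an unadjusted p under 0.05 in edgeR the members numbered 0, 1 and 0, the 1 being Nr5a1 in het against WT, beside 6.01%, 5.62% and 5.55% of all tested genes, and edgeR's quasi-likelihood test and DESeq2 each called 0 in the 3. Fitted log2 fold changes lay between -0.90 and 0.90. Otp had 27.1, 21.2 and 26.7 CPM in WT, 30.4, 41.3 and 15.6 in het, and 34.9 and 21.9 in KO. The het values spanned those of the other labels. Sim1 had 12, 11.7 and 10.8 CPM in WT, 11.5, 15.1 and 5.26 in het, and 10.8 and 6.02 in KO (KO against WT log2 fold change -0.45, SE 0.41, edgeR adjusted p = 0.997). That value was -0.08 without KO 8 and -0.93 without KO 7 (edgeR adjusted p 0.710 or more throughout). Nkx2-1 had 10.5, 14.5 and 8.96 CPM in WT, 12, 14.9 and 9.35 in het, and 10.6 and 9.03 in KO. Both KO libraries fell inside the WT range for Nkx2-1. Nr5a1 had 3.10, 2.58 and 3.05 CPM in WT, 5.00, 8.75 and 2.53 in het, and 3.47 and 3.87 in KO. Fezf1 had 13.0, 13.9 and 12.5 CPM in WT, 19.3, 23.1 and 10.1 in het, and 18.0 and 11.6 in KO. Six6 had 2.71, 2.75 and 3.23 CPM in WT, 4.63, 4.84 and 1.56 in het, and 4.98 and 1.93 in KO. The KO libraries of Fezf1 and of Six6 fell on either side of the WT values.

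For Nr5a1 the KO libraries both lay above the 3 WT libraries (means 3.67 and 2.91 CPM; log2 fold change 0.33, SE 0.51, edgeR adjusted p = 0.999), and Rax did the same on 3 against 2 counts (means 0.324 and 0.122 CPM). The ranges of the other 7 members overlapped. Over all tested genes the ranges of KO and WT lay apart for 21.3%, with 0.167% called by edgeR, beside 1 of the 7 tested members. Those of all 9 overlapped between het and WT (apart for 11.1% of genes, 0.0935% called) and between KO and het (19.1%, 0.234% called). The fitted difference of Nr5a1 in het against WT, 0.90 (SE 0.43, edgeR adjusted p = 0.871), ran from 0.38 without het 5 to 1.24 without het 6 (edgeR adjusted p 0.285 or more throughout). Whether the KO or het label had another effect in hypothalamus than in each other region was tested in 42 interaction terms, of which 0 passed in the edgeR fit, 3 had an unadjusted p under 0.05, and the lowest adjusted p was 0.511. Those 3 were of Sim1, whose counts outside the hypothalamus were 0 in the WT libraries. Terms in which a member stood at 0 under both labels in the other region carried no information, as for Six6 and Hmx2 in ventral striatum. Other tools were not run on the 42 terms. The share of all genes passing in them is not given here, so these counts single out nothing about the members. Of the marker lists, Lhx8 was lower under the KO label (log2 fold change -3.29, edgeR adjusted p = 0.0132) and the het label (-2.88, 0.00490) than under WT, resting on WT 1 at 4.45 and WT 3 at 5.38 CPM, with WT 2 at 0.516. Neurod6 was higher in KO than in het (2.91, edgeR adjusted p = 0.0435) and Npy higher in KO than in WT (0.83, 0.0393). Neurod6 is among the cortical markers whose sum, 422 CPM, was highest in hypothalamus KO 8. Telencephalic tissue in single libraries and an effect of genotype cannot be told apart here.

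Over all 28 libraries the genes most like each member in log2 CPM, by Pearson's r given as a description, fell into a hypothalamic group and a separate company for Nkx2-1. Among those nearest to Otp were Hcrt (r = 0.98) and Pmch (0.97), and among those nearest to Six6 Hcrt (0.97) and Oxt (0.97). Sim1 was nearest to Oxt (0.97), Otp (0.97) and Lhx9 (0.97). Nr5a1 was nearest to Npvf (0.98), Hcrt (0.97) and Krt90 (0.97), and Fezf1 to Cbln1 (0.97), Foxb1 (0.97) and Otp (0.97). Hmx2, on few counts, had its highest r with Bsx (0.78), Irx5 (0.77) and Oxt (0.77). Nkx2-1 was nearest to Vat1l (0.97), Zfhx3 (0.96) and Zcchc12 (0.96), genes that were likewise read in hypothalamus and striatum and low in motor cortex, with means of 259, 231, 209 and 30.8 CPM for Vat1l in hypothalamus, ventral striatum, dorsal striatum and motor cortex. Its r with the other tested members was 0.19 to 0.55.

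A list of 40 other transcription factors of hypothalamic development gives the setting for the members. Of the 38 tested 32 were higher and 5 lower in hypothalamus than in the average of those regions by edgeR, and Nr0b1 and Vax2 did not pass the filter. The median fitted log2 fold change was 2.68, against 0.04 over all genes tested. As pooled ratios, with the floor of 3 counts for 1 gene at 0 elsewhere, the median log2 ratio was 2.35 over the 40 and 5.31 over the 9 members, against 0.01 over the tested genes. Foxa1 (6.89), Foxb1 (6.34), Lhx1 (5.89), Lmx1b (5.87) and Lhx9 (5.72) were among those with the largest fitted log2 fold changes. Foxa1 was at 0 in both striatal regions. Foxb1 and Lhx1 were at 0 in the WT libraries of dorsal striatum, and in ventral striatum Lmx1b in the het and Lhx9 in the WT libraries. All of these fitted values thus depend on the prior count and are no bounds, and so does their order. Foxb1 ran from 4.08 to 11.2 CPM in hypothalamus and averaged 0.246 CPM or less in each other region. The lowest were Meis2 (-2.87), Emx2 (-2.11) and Lhx2 (-1.76), factors that the telencephalon keeps in use. The 40 genes summed to 731 to 880 CPM in hypothalamus, with Arnt2, the partner of Sim1, most abundant at 139 to 156 CPM, and their sums elsewhere were 666 to 1088 CPM with Meis2 or Arnt2 leading. In the genotype comparisons 0 of 38 passed by edgeR (4, 3 and 4 at an unadjusted p under 0.05 for KO against WT, het against WT and KO against het, beside the 6.01%, 5.62% and 5.55% of all genes given above), and 0 with the quasi-likelihood test and with DESeq2.

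Genes beside the members on the chromosome mostly differed little between regions. Among the nearest protein-coding genes, the ubiquitously used Ppm1a beside Six6 did not pass (log2 fold change 0.09, edgeR adjusted p = 0.213), nor did Mbip beside Nkx2-1 (0.21, 0.0550), while Psmb7 beside Nr5a1 was higher by 0.19 (0.0143). Tbca and Wdr41 on either side of Otp were higher in hypothalamus by 0.71 and 0.20, Bub3 beside Hmx2 by 0.27 and Acadsb beside Hmx3 by 0.46, while Ascc3 beside Sim1 and Nr6a1 beside Nr5a1 were lower, at -0.29 and -0.54 (edgeR adjusted p at most 0.0238 in each). Beside Fezf1, Aass did not pass (-0.25, edgeR adjusted p = 0.309), and Cadps2 was higher by 0.74 (8.8e-05), with its highest mean in motor cortex, 126 CPM. Grp, the peptide gene beside Rax, had means of 1.67 CPM in hypothalamus, 1.08 in motor cortex, 0.182 in ventral striatum and 0.0653 in dorsal striatum (against the mean of the other regions 3.02, edgeR adjusted p = 3.5e-14). Nkx2-9, Gm49339 and Cplx4 did not pass the filter. Six6 shares 192 exon bases, 4.8% of its exons, with 4930447C04Rik on the other strand, so its counts are uncertain to that extent.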

How the data were processed

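RNA was measured in 28 libraries of hypothalamus, ventral striatum, dorsal striatum and motor cortex. Counts of reads per gene were deposited by the authors, made per the submitters' processing notes with Trimmomatic 0.32, Bowtie2 2.2.3 (removal of ribosomal reads), STAR 2.3.1z8 on GRCm38, SAMtools 0.1.19 and HTSeq 0.6.1p1. The strand setting was not stated, so counts of genes that overlap on opposite strands are uncertain. The summary lines for reads without a gene and a GFP entry (0 in every library) stayed out of library sizes and tests, and 44.78 to 54.22% of each file's counts lay on genes. The depth of 3536802 to 5150280 counts on genes makes 1 count about 0.2 CPM. No 2 libraries of a group were copies (21 pairs, chi-square per degree of freedom 1.858 to 14.592).

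Libraries were grouped by region and genotype label, 12 groups in 1 fit. Analyses used R 4.3.3 and edgeR 4.0.16 (TMM scaling, genes over 1 CPM in at least 2 libraries, likelihood ratio test, Benjamini-Hochberg adjusted p, threshold 0.05), with Python 3.11.15 for tables and figures. The fit was also tested on simulated data, and the outcome is not given here. Region comparisons weighted the genotypes equally and treated libraries as independent, since the labels do not say which libraries came from 1 animal. Genotype comparisons were made in hypothalamus. Log2 CPM used a prior count of 2. Pooled ratios carry exact 95% counting intervals, and a group at 0 was given a floor of 3 counts. Correlations over 8 libraries used all 40320 permutations. Alternatives were DESeq2 size factors, library size alone, no filter, over 1 CPM in at least 8 libraries, the edgeR quasi-likelihood test, DESeq2 1.42.0, only the regions compared, each library left out, and 4 libraries left out together. Gene positions came from GENCODE M21, which named 28842 of 29878 listed genes.

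The members and the lists (other hypothalamic transcription factors, neuropeptides, paraventricular and supraoptic, ventromedial and arcuate neurons, tanycytes, pituitary, thalamus, cortical excitatory neurons, striatal spiny neurons, basal forebrain and medial ganglionic eminence neurons, choroid plexus and ependyma) were chosen with earlier results of these data known. Named were the members, Hdc, the 6 highest and 3 lowest passing genes of the transcription factor list in hypothalamus against the other regions, the 3 genes most like each tested member, the nearest protein-coding neighbours and the leading gene of each list. Other genes, such as Lhx6, Lhx8, Slc17a6, Slc17a7, Emx1, Prkcd, Tcf7l2, Neurod6, Npy, Hcrt, Pmch, Oxt and Arnt2, where no part of this rule names them, were chosen after their values were seen. Of 7 motifs CCAAT and GGGCGG were added after the first 5 had no match in the printed stretches, and the 3 promoters were chosen by CPM per kb, after values were seen. Results for some genes that this rule names are not reported here.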

Additional observations from a re-analysis of the deposited data

Results flagged for a closer look

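In 19 groups of at least 5 libraries and over 3 counts, each gene's values were looked at for 1 library far from the rest, and 3 stood apart. Chance alone flags about 1 in 20. Nkx2-1 in ventral striatum was 11.8 CPM in WT 3, with the next library at 8.16. Nr5a1 in hypothalamus was 8.75 CPM in het 5, with the next at 5.00. Fezf1 in ventral striatum was 2.28 CPM in KO 8, with the next at 1.08. None of the 3 was tested further. Of 42 interaction tests of genotype and region in edgeR 0 passed (lowest adjusted p 0.511). The share over all genes is not given for these tests, and those with motor cortex rest on 1 WT library. In some a member stood at 0 under both labels in the other region, and these carried no information.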

How the results depend on the processing

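Region results of the members mostly kept their direction and call. Library size alone moved the all-gene median in log2 from 0.04 to 0.31 for hypothalamus against the other regions, and to 0.41, 0.24, 0.28 and 0.17 for hypothalamus against dorsal striatum, ventral striatum and motor cortex and for ventral against dorsal striatum. Without the filter 9 of 9 members were higher in hypothalamus than in the mean of the other regions and than in dorsal striatum, 8 of 9 than in ventral striatum and 7 of 9 than in motor cortex. The share of all genes called without the filter is not given here, so these counts single out nothing about the members. They include Hmx3 on 15 hypothalamic counts and Rax on 8, for which no lower bound was given above. Against the mean of the other regions 7140 to 9799 genes were called over the alternatives, and 7188 to 8238 with a library left out. For dorsal striatum, ventral striatum, motor cortex and ventral against dorsal striatum the left-out ranges were 7818 to 8352, 5584 to 6518, 6482 to 7148 and 3652 to 4401.

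Genotype counts were fragile. The 25 genes called between KO and WT became 16 on library size alone, 4 with the quasi-likelihood test, 5 with DESeq2, 12 with only the hypothalamus fitted, 4 with the 4 libraries left out, 4 without KO 8 and 143 without KO 7. The 14 between het and WT became 2 with the quasi-likelihood test, 2 with DESeq2, 2 without WT 3 and 13 without WT 2. The 35 between KO and het became 0 with the quasi-likelihood test, 7 with DESeq2, 3 with the 4 libraries left out, 0 without KO 8 and 97 without KO 7. The cause was not tested. The setting with 4 libraries left out was chosen after seeing the data and was not run for het against WT.

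No member passed in these comparisons, and several log2 fold changes turned sign. Hmx2 in het against WT was -0.05 on library size alone. With the 4 libraries left out KO against het was 0.26 for Otp, 0.03 for Sim1, 0.43 for Six6 and 0.04 for Fezf1. With 1 library left out KO against WT ran from -0.18 to 0.45 for Fezf1, -0.35 to 0.02 for Nkx2-1, -0.19 to 0.48 for Otp and -0.58 to 0.78 for Six6. KO against het ran from -0.59 to 0.04 for Fezf1, -0.41 to 0.30 for Otp, -0.82 to 0.03 for Sim1 and -0.92 to 0.43 for Six6. Het against WT ran from -0.40 to 0.45 for Hmx2, -0.08 to 0.32 for Nkx2-1, -0.12 to 0.52 for Otp and -0.45 to 0.21 for Sim1. Ventral against dorsal striatum ran from -1.04 to 1.56 for Sim1. Of the 21 correlations 4 passed, and 9 with deviations from the genotype means, for which the permutation is not exact. With the 2 farthest libraries left out 0 passed, where 6 libraries allow few permutations and the count says little.

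With the replicate number as a replicate block 7990 genes were called for hypothalamus against the other regions, 8268 against dorsal striatum, 6517 against ventral striatum, 6943 against motor cortex and 4101 between the striatal regions, and no member's call changed. Between libraries with the same number r ran from -0.08 to 0.09 (34 pairs, median 0.01). KO 7 and KO 8 had equal r in each pair of regions, so the 34 pairs are not independent. With so few libraries a group, these r cannot decide whether a shared number marks the same animal. The number was used in the block fits above and in no other fit. For the comparisons between genotypes no paired analysis was possible, because the groups share no replicate numbers.

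The limits are 2 KO libraries a region, 1 WT library of motor cortex, males only, few counts for Hmx2, Hmx3 and Rax, uneven dissection, and Hdc counts that run against the genotype labels outside the hypothalamus. Protein was not analysed here.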
